A study of Mus musculus with 6 samples.

Results

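The 10 genes described here regulate how long mRNAs last in the cytoplasm, and they were measured in freshly sorted muscle stem cells (MuSCs) of healthy and dystrophic mice. They were selected by gene symbol: Zfp36, Zfp36l1, Zfp36l2, Btg1, Btg2, Elavl1, Hnrnpd, Stau1, Cnot1 and Cnot7. All 10 were among the 22706 genes of the deposited table, and all 10 passed the minimum mean value of 5 that left 15915 genes for testing. RNA-seq of ribosomal RNA-depleted total RNA was available for 3 groups of 2 libraries each. Control mice were wild type. Mdx mice carry the Dmd mutation of the standard model of Duchenne muscular dystrophy. The third group is labelled mdx, Sirt6-mKO (here Sirt6mKO/mdx) and carries the mdx mutation together with a floxed Sirt6 gene that is deleted by a constitutively active Cre recombinase under the Pax7 promoter, hence in the whole muscle lineage and not only in adult MuSCs. The strain label of all 3 groups is C57BL/6. Cells were sorted as Sca1-/CD45-/CD31- and then as Integrin-a7+/CD34+ or by a Pax7-linked fluorescent reporter, and the labels do not say which gate or which animals gave which library.

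The libraries held approximately 4397632 to 9743941 reads in genes, as estimated from the steps in the normalised values, and the 2 libraries of a group correlated with r between 0.924 and 0.945 across genes. The MuSC markers Pax7 and Myf5 lay between 2167 and 3236 and between 1669 and 3258 normalised reads in all 6 libraries. Sirt6 itself read 41 and 32 in control, 33 and 40 in mdx, with 37 and 30 in the Sirt6mKO/mdx-labelled libraries. A value summed over the whole gene does not check a deletion of some of its exons, so the third group is known here by its label alone. Xist, which is transcribed from an inactive X chromosome, read 16772 and 12950 in the control libraries and 7 to 34 in the other 4 libraries, while the Y-linked Ddx3y read 3 and 8 in control and 1024 to 1767 elsewhere. The methods describe in vivo work on male mice and the labels give no sex, so sex and genotype cannot be told apart in any comparison with control. This does not apply to the Sirt6mKO/mdx-labelled libraries against mdx. In sorted cell populations, fewer cells of a type that expresses a gene and less of its RNA per cell cannot be told apart.

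Most mRNAs are degraded after their poly(A) tail has been shortened, and the CCR4-NOT complex is the main enzyme for this step. ZFP36 (tristetraprolin) and its relatives ZFP36L1 and ZFP36L2 bind AU-rich elements in 3' UTRs of short-lived mRNAs and bring CCR4-NOT to them, whereas BTG1 and BTG2 bind the deadenylase subunit CNOT7 and speed up deadenylation. CNOT1 is the scaffold of the complex. ELAVL1 (HuR) binds similar AU-rich elements and is mostly known to stabilise mRNAs, HNRNPD (AUF1) binds them with either outcome, and STAU1 binds double-stranded RNA in 3' UTRs. In MuSCs, ZFP36 and STAU1 are known as restraints on MyoD expression in quiescent cells, and HuR and AUF1 are known for acting on mRNAs of the myogenic programme. Zfp36 and Btg2 are also classic immediate early genes, whose transcription responds within minutes to growth factors, stress and tissue handling.

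Start-proximal sequences of the genes with the largest differences are shown first. The promoter elements searched are known from immediate early genes but are not particular to them. The RefSeq table (GRCm38.p6) held 7 of the 10 genes, and Zfp36l2, Cnot1 and Cnot7 had no entry. The 250 bases before each RefSeq start were searched on both strands for the cyclic AMP response element TGACGTCA and its shorter form TGACG, AP-1 (TGANTCA), the CArG box bound by serum response factor, EGR (GCGNGGGCG), GGGCGG and TATAAA. Capitals mark matches to the first 5 of these motifs, and the shorter form on the opposite strand reads CGTCA. The Btg1 and Btg2 stretches run from 200 to 41 bases before the start, and the Zfp36 stretch runs from 70 to 41 bases before it, where GENCODE M21 annotates a longer 5' UTR of Zfp36.
Zfp36, chr7:28379269-28379298, minus strand: ccccaggccgccCCATAAAAGGagaaagct
Btg1, chr10:96616801-96616960, plus strand: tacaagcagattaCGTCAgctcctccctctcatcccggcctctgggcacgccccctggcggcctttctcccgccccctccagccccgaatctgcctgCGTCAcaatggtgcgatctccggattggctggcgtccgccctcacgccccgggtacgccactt
Btg2, chr1:134079196-134079355, minus strand: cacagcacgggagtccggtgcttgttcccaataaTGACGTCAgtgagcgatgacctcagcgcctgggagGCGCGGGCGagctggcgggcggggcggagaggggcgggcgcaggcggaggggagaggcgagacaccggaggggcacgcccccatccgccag
Zfp36 held a CArG box 58 bases and an EGR motif 105 bases before its start, motifs found in 1.47% and 4.70% of the 32851 promoters. Btg2 held a complete TGACGTCA 166 bases upstream, present in 1.55% of promoters, and an EGR motif 131 bases upstream. Of these elements, Btg1 held only the shorter form TGACG, 187 and 103 bases upstream, and 17.8% of promoters hold at least one. TATAAA lay 26 bases before the start of Btg1 and 29 bases before that of Zfp36l1, and 12.4% of promoters hold it. Zfp36l1 had an AP-1 match 129 bases upstream, found in 6.75% of promoters. Hnrnpd and Stau1 had GGGCGG alone, which 32.7% of promoters hold, and Elavl1 had none of the motifs. These matches describe the letters in the windows and do not show that a factor binds there.

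The ZFP36 proteins recognise UAUUUAU, and the mRNAs of the family hold such sites themselves. Stretches of 30 bases of the 3' UTR are printed for 4 genes, from GENCODE M21 transcripts on GRCm38, with each ATTTA in capitals. The capitals lie within a full TATTTAT, except for the first ATTTA of Zfp36l1 and of Zfp36l2, which reads TATTTAA.
Zfp36, chr7:28376958-28376987, minus strand: cctttATTTAtgacgactttATTTAttgta
Zfp36l1, chr12:80108431-80108460, minus strand: cttATTTAacttatcaaaacgtATTTAttg
Zfp36l2, chr17:84184918-84184947, minus strand: gaaaaactATTTAacttATTTAttatcttg
Btg2, chr1:134077249-134077278, minus strand: aaaatgaagagctATTTAtacatgtttttt
Zfp36 held 3 copies of TATTTAT in a 3' UTR of 774 bases, and 1.02% of the 1759 tested genes with a 3' UTR of similar length held as many. Zfp36l1 and Zfp36l2 also held 3 each, in 1835 and 1822 bases. Elavl1 held the most, 8 in 4218 bases, a number reached by 0.194% of 1029 genes of similar length. Btg2 and Cnot7 held 1 copy each, and Btg1, Hnrnpd, Stau1 and Cnot1 held none. Among all 13042 tested genes with a 3' UTR of at least 50 bases, 28.2% held at least 1 copy.

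Zfp36 and Btg2 were the members that fell most in mdx MuSCs, to 6.02% and 7.41% of the control mean, and the other members of both families were also lower in mdx than in control. The values below are normalised read counts, which are reads per gene divided by the size factor of the library. Zfp36 (ENSMUSG00000044786, chr7:28376784-28379255, minus strand) read 2566 and 2835 in control, 155 and 170 in mdx, with 1311 and 1337 in the Sirt6mKO/mdx-labelled libraries. The 3 groups did not overlap for this gene, and the third group lay between the other two. The mdx values rested on approximately 237 and 219 reads. Zfp36 differed by -4.05 on the log2 scale in mdx against control (SE 0.235, adjusted p = 5.7e-08, limma on log2 of the value plus 1, with Benjamini-Hochberg adjustment over all 15915 genes, as for every adjusted p below). A gene was called when its adjusted p was at most 0.05 and its log2 fold change at least 1 in size. Only 47 of the tested genes had a lower log2 fold change in this comparison.

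Btg2 (ENSMUSG00000020423, chr1:134075170-134079120, minus strand), an antiproliferative target of p53 and of growth factor signalling, was the most abundant member in control, with 5489 and 5385 reads. It read 432 and 374 in mdx and 4982 and 6248 in the Sirt6mKO/mdx-labelled libraries. The mdx libraries lay far below the other 4, which overlapped each other. The log2 difference of mdx against control was -3.75 (SE 0.270, adjusted p = 5.7e-07), and 67 genes had a lower one. Its close relative Btg1 (ENSMUSG00000036478, chr10:96617001-96622813, plus strand) read 3769 and 2835 in control, 1000 and 832 in mdx, with 1871 and 3098 in the third group. Btg1 fell by 1.84 on the log2 scale in mdx (SE 0.299, adjusted p = 0.00073), with no overlap between the 2 groups.

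The other ZFP36 relatives changed less. Zfp36l1 (ENSMUSG00000021127, chr12:80107760-80113013, minus strand) read 825 and 942 in control, 322 and 235 in mdx, with 392 and 330 in the Sirt6mKO/mdx-labelled libraries. It was lower in mdx by a log2 difference of -1.68 (SE 0.255, adjusted p = 0.00044). An antisense gene, Gm26669, shares 1672 exonic bases with Zfp36l1. Reads overlapping more than 1 gene were left out by the authors and the strand setting of the counting is not given, so the level of Zfp36l1 is uncertain. Gm26669 itself read 4 to 45, which does not settle this, because counting without strand would leave shared reads out of both genes. Zfp36l2 (ENSMUSG00000045817, chr17:84183931-84187947, minus strand) read 1118 and 854 in control, 394 and 418 in mdx, with 819 and 715 in the third group, and was lower in mdx by -1.27 (SE 0.245, adjusted p = 0.0027).

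**Figure D1:**
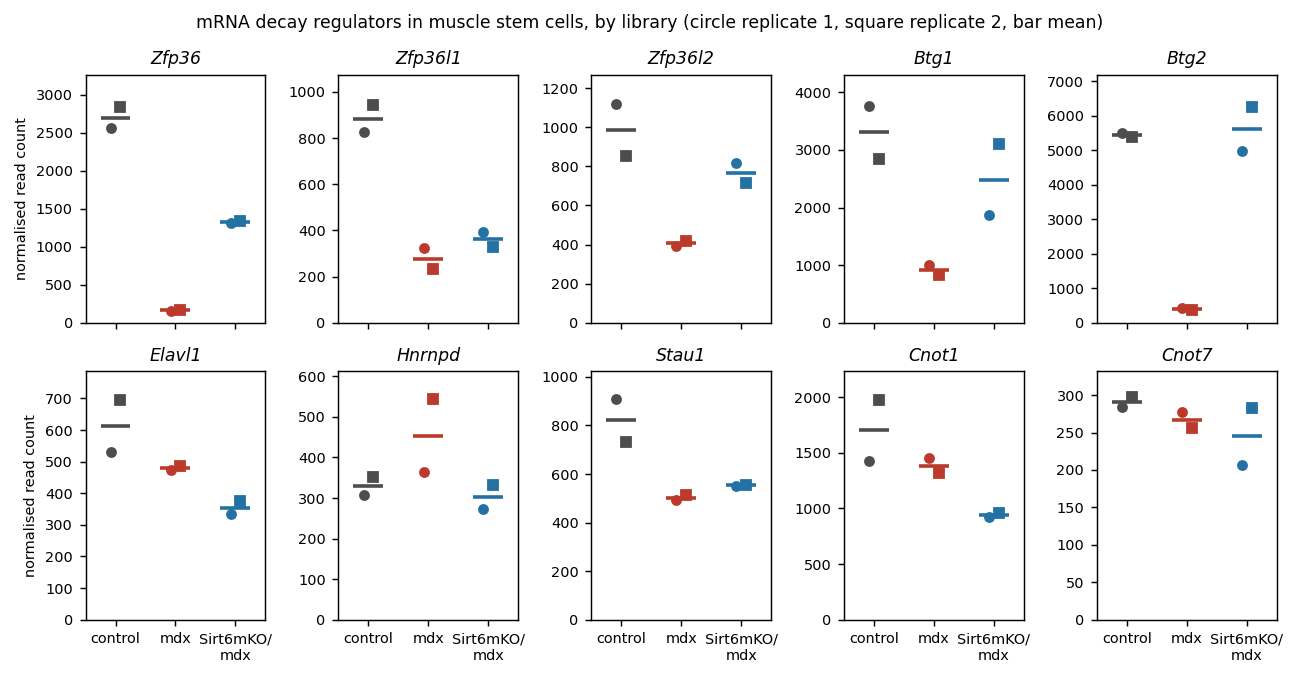
Normalised read counts of the 10 genes in each of the 6 libraries (vertical axis, linear from 0 and different for each gene), with replicate 1 as a circle, replicate 2 as a square and the group mean as a bar. Zfp36 and Btg2 are near the bottom of their axes in mdx, at 155 to 170 and 374 to 432, while Cnot7 stays between 207 and 297 in all libraries.

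The 5 genes of the binding proteins and the deadenylase did not pass the test in mdx against control. Elavl1 (ENSMUSG00000040028, chr8:4284782-4325100, minus strand) read 532 and 696 in control, 475 and 487 in mdx, with 333 and 376 in the Sirt6mKO/mdx-labelled libraries. Its groups did not overlap and descended in that order, but neither the first step (log2 difference -0.34, 95% interval -0.86 to 0.19, adjusted p = 0.38) nor the second (-0.44, interval -0.97 to 0.08, adjusted p = 0.28) passed. Hnrnpd (ENSMUSG00000000568, chr5:99958426-99978938, minus strand) was the only member with higher values in mdx, with 308 and 351 in control, 365 and 543 in mdx, with 272 and 331 in the third group. That difference of 0.44 did not pass either (interval -0.14 to 1.01, adjusted p = 0.29). Stau1 (ENSMUSG00000039536, chr2:166947549-166996299, minus strand) read 909 and 733 in control, 491 and 514 in mdx, with 551 and 555 in the third group. The control values of Stau1 lay above the other 4, and the log2 difference of mdx against control was -0.70 (interval -1.21 to -0.19, adjusted p = 0.058).

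Cnot1 and Cnot7, which belong to the deadenylase that the ZFP36 and BTG proteins act through, were close to their control levels in mdx. Cnot1 (ENSMUSG00000036550, chr8:95719451-95807462, minus strand) read 1426 and 1975 in control, 1455 and 1314 in mdx, with 921 and 959 in the Sirt6mKO/mdx-labelled libraries. The control and mdx values overlapped (log2 difference -0.28, interval -0.82 to 0.27, adjusted p = 0.50). Cnot7 (ENSMUSG00000031601, chr8:40492540-40515847, minus strand) read 284 and 297 in control, 278 and 256 in mdx, with 207 and 283 in the third group. Its difference of -0.12 had an interval of -0.69 to 0.44 (adjusted p = 0.80), so a change of the size seen for Zfp36l2 lies outside it.

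In total, 5 of the 10 members were called lower in mdx than in control and 0 higher, against 7.34% and 6.89% of all tested genes (14.2% in either direction). At an unadjusted p under 0.05 there were 6 members, the sixth being Stau1. In 9 of the 10 members the mdx and control libraries did not overlap, 1 of them higher and 8 lower in mdx, but this was also true of 57% of all genes, 28.7% higher and 28.3% lower. The median log2 difference was -0.98 over the members and 0.00 over all tested genes. The calls of Zfp36, Zfp36l1, Zfp36l2, Btg1 and Btg2 were each kept when any 1 of the 6 libraries was left out. With a single prior variance in place of a trend with expression, the calls of Zfp36l1 (adjusted p = 0.053), Zfp36l2 (0.076) and Btg1 (0.062) were lost.

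Zfp36 and Btg2 were higher again in the Sirt6mKO/mdx-labelled libraries than in mdx. Btg2 rose by 3.79 on the log2 scale (SE 0.270, adjusted p = 1.1e-06), a 13.9-fold higher mean, and only 33 tested genes had a higher log2 fold change. Zfp36 rose by 3.02 (SE 0.235, adjusted p = 2.5e-06), an 8.15-fold higher mean, with 151 genes above it. Btg1 rose by 1.40 (SE 0.299, adjusted p = 0.0097), although its 2 values in the third group, 1871 and 3098, were far apart. The call of Btg1 was lost without mdx replicate 1 (1.53, adjusted p = 0.052), without mdx replicate 2 (1.27, adjusted p = 0.11) and without Sirt6mKO/mdx replicate 2 (1.04, adjusted p = 0.16). It was also lost without the minimum mean (1.40, adjusted p = 0.11).

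The other ZFP36 relatives were not called in this comparison. Zfp36l2 was higher in the Sirt6mKO/mdx-labelled libraries by 0.91 (interval 0.39 to 1.43, adjusted p = 0.032), which passed the p threshold but not the minimum fold, and its values did not overlap between the groups. Zfp36l1 differed by 0.39 (interval -0.16 to 0.93, adjusted p = 0.37), and by -0.24 when libraries were scaled to the same total. Its values of 392 and 330 lay just above the 322 and 235 of mdx and far below those of control. Whether Zfp36 and Zfp36l1 responded differently was not tested, but the 95% intervals of their log2 differences, 2.52 to 3.52 and -0.16 to 0.93, did not overlap.

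Elavl1, Hnrnpd, Stau1, Cnot1 and Cnot7 did not pass in this comparison, with log2 differences of -0.44, -0.57, 0.14, -0.56 and -0.14. Hnrnpd and Cnot1 came nearest, with intervals of -1.14 to 0.01 and -1.10 to -0.01 and adjusted p of 0.20 and 0.19. These genes depended on how the libraries were scaled. When all libraries were brought to the same total, the median of all genes shifted to -0.58, Elavl1 (-1.07), Hnrnpd (-1.19) and Cnot1 (-1.18) were called lower, and Stau1 changed sign to -0.49. Zfp36 (2.39) and Btg2 (3.16) were called higher under this scaling too, and Btg1 was not (0.77, adjusted p = 0.092).

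In this comparison, 3 of the 10 members were called higher and 0 lower, against 5.62% and 2.54% of all tested genes (8.17% in either direction). The libraries did not overlap in 9 members, 6 higher and 3 lower, which was the case for 56% of all genes, 28.8% higher and 27.2% lower. The median log2 difference of the members was 0.26, against 0.02 over all tested genes. With a single prior variance no gene of the 15915 was called by limma in this comparison, although 3156 had an unadjusted p under 0.05. Zfp36 and Btg2 then had adjusted p = 0.054 each.

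**Figure D2:**
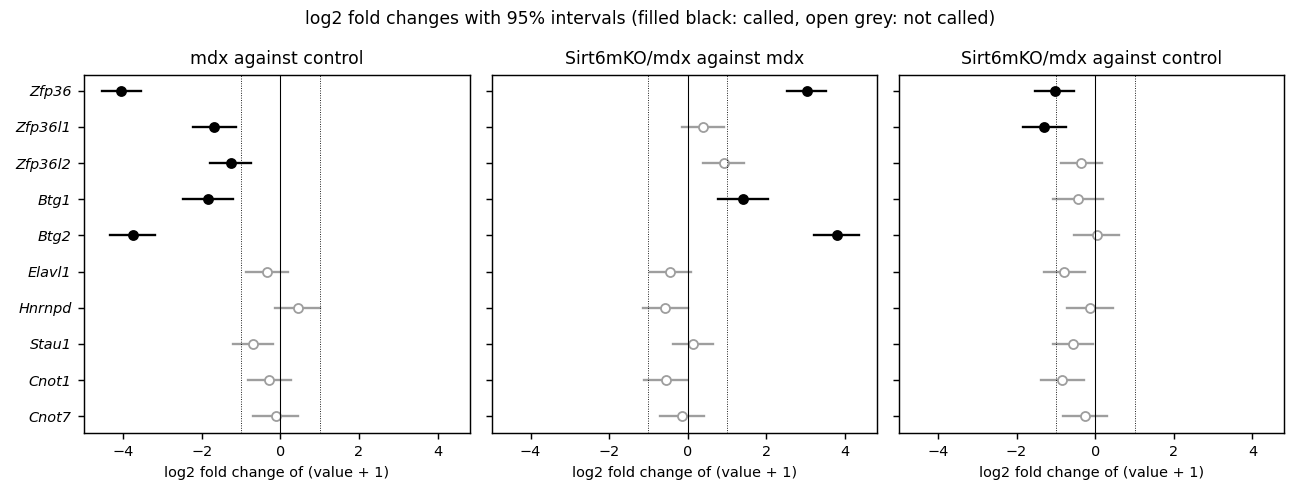
Log2 fold changes of the 10 genes (horizontal axis) in the 3 comparisons, with 95% confidence intervals as bars and dotted lines at the minimum fold. Filled black points passed both thresholds: 5 in mdx against control, 3 in Sirt6mKO/mdx against mdx and 2 in Sirt6mKO/mdx against control.

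Compared with control, the Sirt6mKO/mdx-labelled libraries had lower Zfp36 and Zfp36l1. Zfp36 reached 49.0% of its control mean, a log2 difference of -1.03 (SE 0.235, adjusted p = 0.014), and Zfp36l1 40.9%, a difference of -1.29 (SE 0.255, adjusted p = 0.0059). Both calls were lost without control replicate 2 (-0.95 and -1.20), without Sirt6mKO/mdx replicate 1 (-1.01 and -1.41) and without Sirt6mKO/mdx replicate 2 (-1.04 and -1.17), where adjusted p lay between 0.051 and 0.15. With libraries scaled to the same total the differences were -1.63 and -1.90. Btg2 stood at 103% of control, and its difference of 0.04 had an interval of -0.54 to 0.61 (adjusted p = 0.96) and turned to -0.57 with libraries scaled to the same total. Btg1 differed by -0.44 (interval -1.08 to 0.20, adjusted p = 0.40) and Zfp36l2 by -0.35 (interval -0.87 to 0.17, adjusted p = 0.41).

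Elavl1 and Cnot1 were lowest in the Sirt6mKO/mdx-labelled libraries. Their differences from control were -0.78 (interval -1.31 to -0.26, adjusted p = 0.063) and -0.84 (interval -1.38 to -0.29, adjusted p = 0.055), short of both thresholds. With libraries scaled to the same total, Elavl1 (-1.38, adjusted p = 0.0049), Cnot1 (-1.44, 0.0041), Stau1 (-1.16, 0.0085) and Btg1 (-1.05, 0.030) were called lower than control. Cnot1 was called lower, at -1.07 with adjusted p = 0.036, when control replicate 1 was left out. Stau1 differed by -0.56 (adjusted p = 0.16), Cnot7 by -0.26 (adjusted p = 0.60) and Hnrnpd by -0.13 (adjusted p = 0.82). In all, 2 of 10 members were called lower and 0 higher, against 2.68% and 5.19% of all tested genes (7.87% in either direction). All 7 members without overlap were lower in the third group, and 51.6% of all genes had no overlap, 26.3% higher and 25.3% lower. The median was -0.50 over the members and 0.01 over all tested genes. All 3 comparisons share libraries with one another, so they are not independent of each other.

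Per length of transcript, the make-up of both families differed between the groups. Levels per kilobase used the exonic bases of 1 GENCODE transcript per gene within the start and end given in the deposited table. The summed level of the ZFP36 family was 2025 and 2140 normalised reads per kb in control, 306 and 292 in mdx, with 1095 and 1059 in the Sirt6mKO/mdx-labelled libraries. Zfp36 supplied 70.7% and 73.9% of it in control but 28.3% and 32.5% in mdx, where Zfp36l2 was the most abundant of the 3. In the third group the Zfp36 share was 66.8% and 70.4%. Levels of Zfp36l1 per kb count the bases that it shares with Gm26669, from which reads may have been left out. The sums, the shares and the order of Zfp36l1 and Zfp36l2 in mdx are therefore uncertain. The summed level of Btg1 and Btg2 was 2755 and 2530 in control, 357 and 303 in mdx, with 2190 and 2897 in the third group. Btg2 supplied 72.6% and 77.6% of this sum in control, 44.1% and 45.0% in mdx, with 82.9% and 78.6% in the Sirt6mKO/mdx-labelled libraries.

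**Figure D3:**
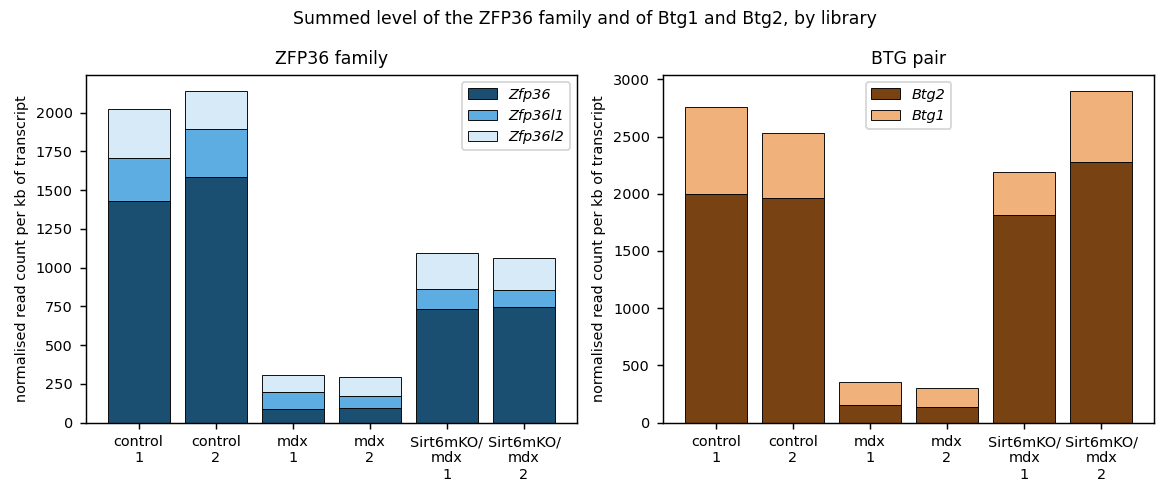
Summed levels of the ZFP36 family (left) and of Btg1 and Btg2 (right) in each library, in normalised read counts per kb of transcript, stacked by gene. The mdx libraries have the shortest bars in both panels, 306 and 292 on the left and 357 and 303 on the right.

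The order of the members by level per kb also shifted. In control it ran from Btg2 (mean 1982 per kb) through Zfp36 (1507) and Btg1 (660) to Hnrnpd (76.3). Zfp36l1 (296), Stau1 (287) and Zfp36l2 (279) followed Btg1 with overlapping library values, so their order is not resolved. The place of Zfp36l1 is uncertain in every group because of the bases it shares with Gm26669. In mdx the levels lay within a narrow range, from 183 for Btg1 and 176 for Stau1 down to 88.6 for Elavl1, and Zfp36 stood at 90.7, where its library values overlapped those of Elavl1, Cnot7, Zfp36l1 and Hnrnpd, so that the lowest places are not resolved. The library values of Btg1, Stau1 and Cnot1 overlapped as well, so the highest places in mdx are not resolved either. In the Sirt6mKO/mdx-labelled libraries, Btg2 (2047), Zfp36 (739) and Btg1 (497) led again, ahead of Zfp36l2 (217) and Stau1 (193).

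Ratios within a library do not depend on its scaling. Normalised reads of Zfp36 were 4.82 and 4.07 times those of Elavl1, which binds similar elements, in control. The ratio was 0.326 and 0.349 in mdx and 3.94 and 3.56 in the third group. These ratios are of reads per gene and the Elavl1 transcript is longer, so only their differences between groups are comparable. Per kb, the mdx means of Zfp36 and Elavl1 were 90.7 and 88.6. The ratio of Btg2 to Btg1 was 1.46 and 1.90 in control, 0.432 and 0.450 in mdx, with 2.66 and 2.02 in the Sirt6mKO/mdx-labelled libraries. The ratio of Zfp36 to Btg2 was 0.467 and 0.526 in control, 0.359 and 0.455 in mdx, with 0.263 and 0.214 in the third group, where Zfp36 was thus lowest relative to Btg2.

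Other genes of the pathway were taken from fixed lists, with the 10 members left out of each count. In the BTG/TOB family, 3 of the 4 other entries were called lower in mdx, beside 7.34% of all tested genes. Their median was -1.95, and 2 of these 3 are the same gene, Tob2, under different identifiers. When any 1 of the 6 libraries was left out, 2 were called. Tob1, an antiproliferative protein that also binds CCR4-NOT, read 489 and 440 in control, 130 and 148 in mdx, with 362 and 395 in the Sirt6mKO/mdx-labelled libraries. It fell by 1.73 in mdx (SE 0.252, adjusted p = 0.00029) and rose by 1.44 in the third group against mdx (SE 0.252, adjusted p = 0.0027). The rise was not called without Sirt6mKO/mdx replicate 1 (1.50), without replicate 2 (1.38) or with libraries scaled to the same total (0.82, adjusted p = 0.059). Tob2, listed under 2 identifiers, read 832 and 528, 168 and 246, and 280 and 318 at its more abundant entry, in the same order of groups. It was lower than control in both mdx (-1.70) and the third group (-1.15, adjusted p = 0.023), the latter lost without control replicate 1 (-0.82) or either library of the third group (-1.06 and -1.24).

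For the other genes of the decay machinery, the shares called are to be read against the 6.89% of all tested genes called higher and 7.34% called lower in mdx. Of 12 other CCR4-NOT and PAN deadenylase genes, 1 was called higher in mdx and 0 lower, with a median of 0.19. This was Cnot6l, a catalytic deadenylase subunit, with 453 and 409 reads in control, 928 and 1011 in mdx, with 639 and 622 in the third group (mdx against control 1.17, SE 0.234, adjusted p = 0.0034). No gene of this list was called in the other 2 comparisons. None of the 18 decapping and 5' decay genes was called in mdx (median -0.01), and 1 of the 16 exosome genes was, with positive log2 differences in 14 and a median of 0.26, namely Exosc9 at 1.01 (adjusted p = 0.024, lost without control replicate 2 at 0.88 and without either mdx library at 0.87 and 1.15, and under 4 other settings). Of 11 nonsense-mediated decay genes none was called in any comparison.

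In the Sirt6mKO/mdx-labelled libraries against mdx, Ddx6, a helicase of decapping complexes, was called lower at -1.01 (adjusted p = 0.023), and this call did not survive the removal of any of these 4 libraries (-0.81 to -1.21). Against control, the decapping subunit gene Lsm3 was called higher at 1.17 (adjusted p = 0.026), and lost the call without control replicate 2 (1.07), either mdx library (1.17) or either library of the third group (1.39 and 0.96), and with libraries scaled to the same total (0.57). The medians of the CCR4-NOT, exosome and nonsense-mediated decay lists were -0.35, -0.38 and -0.19 in the Sirt6mKO/mdx-labelled libraries against mdx, where 14 of the 16 exosome genes had negative differences. Under scaling to the same total, 6 CCR4-NOT, 6 exosome, 5 decapping and 2 nonsense-mediated decay genes were called lower in that comparison.

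Other proteins that bind 3' UTRs were mixed. In mdx against control, 0 of 20 were called higher and 4 lower, with a median of -0.14, against 6.89% and 7.34% of all tested genes. The lower calls numbered 2 without a minimum mean and 1 with a single prior variance. Igf2bp2, which stabilises growth-related mRNAs in myoblasts, read 350 and 244 in control, 41 and 107 in mdx, with 314 and 400 in the third group. It fell by 2.12 in mdx (SE 0.383, adjusted p = 0.0017) and was higher by 2.40 in the third group against mdx (adjusted p = 0.0013), a call lost without Sirt6mKO/mdx replicate 2 (2.23). Without a minimum mean both calls were lost (adjusted p = 0.055 and 0.086). The mdx libraries set the size of both differences, which were -1.44 and 1.72 without mdx replicate 1 and -2.80 and 3.08 without mdx replicate 2. Zc3h12a, an endonuclease for inflammatory mRNAs also called Regnase-1, read 208 and 92, 38 and 30, and 169 and 160 in the same order of groups. Its difference was -2.00 in mdx (adjusted p = 0.0035, lost without control replicate 1 at -1.42) and 2.25 in the third group against mdx (adjusted p = 0.0032). The latter was lost without mdx replicate 2 (2.08) or either library of the third group (2.21 and 2.29). Ptbp1, a splicing regulator, was lower in mdx by -1.26 (adjusted p = 0.0027), and Igf2bp3, outside the naming rule because of its low mean, was the fourth.

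Tia1, an AU-rich element binding translational repressor, was the 1 gene of this list called lower in the Sirt6mKO/mdx-labelled libraries against mdx (-1.18, adjusted p = 0.012), and the removal of any of the 4 libraries ended the call (-0.97 to -1.39). Among 9 genes of the p38-MK2 pathway and of 14-3-3 and phosphatase proteins, which set the activity of the ZFP36 protein, only genes of 14-3-3 proteins were called. Ywhae was higher in mdx than in control at 1.02 (adjusted p = 0.026) and lower in the third group against mdx at -1.01 (adjusted p = 0.041). Ywhab was lower in the latter comparison at -1.50 (adjusted p = 0.0064). Leaving out any of the 4 libraries compared ended both calls in the third group against mdx, with -0.70 to -1.33 for Ywhae and -1.31 to -1.68 for Ywhab. The Ywhae call in mdx against control was lost without control replicate 1 (0.82), mdx replicate 1 (0.89), mdx replicate 2 (1.15) or Sirt6mKO/mdx replicate 1 (1.02).

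Most mRNAs with AU-rich 3' UTRs that are known as ZFP36 targets were lower in mdx than in control. Of 21 listed mRNAs, 17 were abundant enough to test. Of these, 13 were called lower and 0 higher in mdx against control, beside 7.34% and 6.89% of all tested genes. Their median was -2.51. Pim1, a kinase of cytokine signalling, read 674 and 391 in control, 37 and 23 in mdx, with 172 and 214 in the Sirt6mKO/mdx-labelled libraries. It fell by 4.09 in mdx (SE 0.350, adjusted p = 2.4e-06). Lif, a cytokine of the interleukin-6 family, read 154 and 189, 12 and 10, and 14 and 17 in the same order, so unlike most of the list it stayed low in the third group (-3.38 against control, adjusted p = 0.00093). Ier3, a stress-induced survival factor, read 826 and 335, 56 and 41, and 735 and 622 (mdx against control -3.43, adjusted p = 1.45e-05, with -2.78 without control replicate 1 and -4.08 without control replicate 2).

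In the Sirt6mKO/mdx-labelled libraries against mdx, 14 of the 17 were called higher and 1 lower, beside 5.62% and 2.54% of all tested genes. Their median was 2.44. The chemokine gene Cxcl1 read 689 and 746 in control, 86 and 75 in mdx, with 822 and 1098 in the third group, a rise of 3.55 (SE 0.254, adjusted p = 1.1e-06). Ier3 rose by 3.79 (adjusted p = 1.3e-05) and the MAP kinase phosphatase gene Dusp1 by 2.77 (adjusted p = 8.2e-05). The exception was Ccnd1, the gene of cyclin D1, with 352 and 851 in control, 930 and 1217 in mdx, with 207 and 251 in the third group. It was lower there than in mdx by -2.22 (adjusted p = 0.00094, lost without Sirt6mKO/mdx replicate 1 at -2.08). Against control, 3 of the 17 were called lower (Lif, Pim1 and Ccnd1) and 0 higher, beside 2.68% and 5.19% of all tested genes. Their median was 0.00. The call of Pim1 (-1.42, adjusted p = 0.021) was lost without control replicate 1 (-1.02), Sirt6mKO/mdx replicate 1 (-1.26) or replicate 2 (-1.57). That of Ccnd1 (-1.26, adjusted p = 0.032) was lost in 5 of the 6 such omissions, with -0.62 to -1.40, and was -1.90 without control replicate 1.

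Of the 21 listed targets, 5 also belong to the list of 36 immediate early genes, and the 2 lists were not independent. Of the 12 tested targets outside that list, 8 were called lower in mdx (median -2.37) and 9 higher in the third group against mdx (median 2.24). The shares of all tested genes were 7.34% and 5.62%. The list of 36 does not hold every immediate early gene, so this split does not separate the targets from that response. The immediate early genes, which rise when muscle is dissociated, shifted in the same directions as Zfp36 and Btg2: 32 of 36 were called lower in mdx than in control and 33 were called higher in the third group than in mdx, with medians of -2.76 and 2.48. Of all tested genes, 7.34% and 5.62% were so called. Csrnp1, a transcription factor gene, had the largest difference in both, at -5.87 and 4.74, followed by Atf3 (-5.42) and the orphan receptor gene Nr4a1 (-4.96) in mdx, and by Nr4a1 (4.17) and Nr4a2 (4.16, but 5.35 without mdx replicate 1, 2.98 without mdx replicate 2, 4.77 without Sirt6mKO/mdx replicate 2 and 3.56, not called, without replicate 1, so its place is not fixed) in the third group against mdx. Against control, Ier5 was called higher (1.34) and Atf3 (-1.35), Fosl2 (-1.22) and Csrnp1 (-1.13) led 4 lower calls, beside 5.19% higher and 2.68% lower of all tested genes. Each of these named calls was lost without either library of the third group (Ier5 1.75 and 0.92, Atf3 -1.12 and -1.59, Fosl2 -1.34 and -1.10, Csrnp1 -1.18 and -1.09), Ier5 (0.73) and Atf3 (just under the minimum fold) also without control replicate 2, and Ier5 without either mdx library (1.34) and with libraries scaled to the same total (0.73). Without control replicate 1, Ier5 was at 1.94. Their summed values were 201407 and 222327 in control, 28378 and 31789 in mdx, with 155174 and 147513 in the Sirt6mKO/mdx-labelled libraries. Their part in the differences of the members was not tested.

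**Figure D4:**
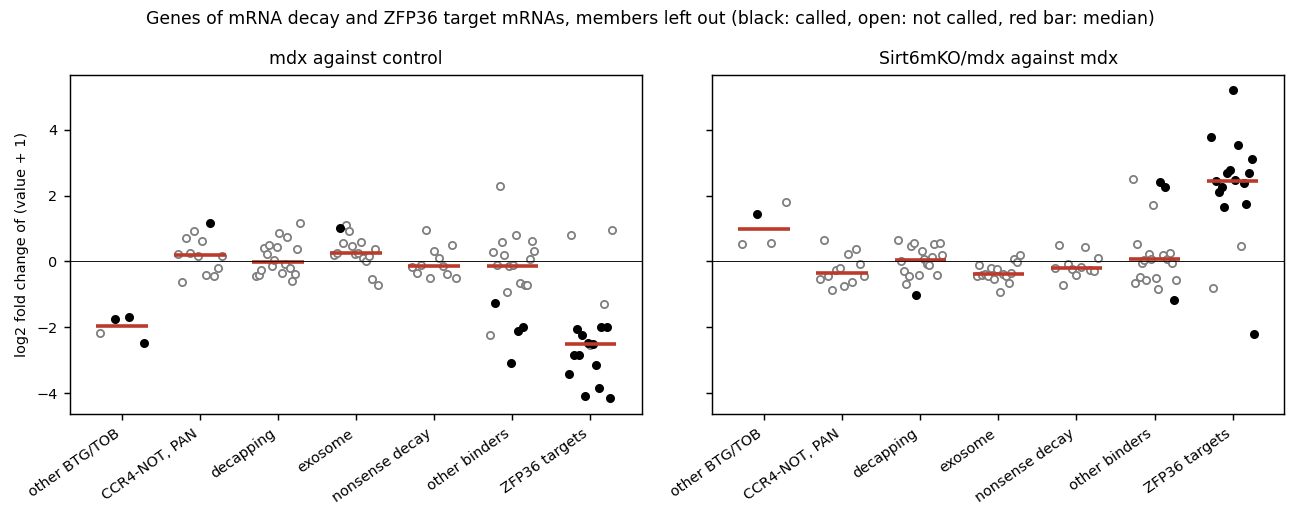
Log2 fold changes (vertical axis) of the listed genes other than the 10 members, one point per gene, in mdx against control (left) and Sirt6mKO/mdx against mdx (right), with called genes in black and list medians as red bars. Medians of the CCR4-NOT, decapping, exosome and nonsense-mediated decay lists lie between -0.38 and 0.26, whereas those of the ZFP36 target mRNAs lie at -2.51 and 2.44.

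Among 7 tested muscle mRNAs known as targets of these binding proteins, Nfkbiz and Cdkn1a were called lower and Myog higher in mdx. Of all tested genes, 7.34% were called lower and 6.89% higher. Nfkbiz, an inflammatory regulator, read 1790 and 1041 in control, 180 and 203 in mdx, with 1393 and 1156 in the third group (-2.83 in mdx, adjusted p = 8.4e-06, and 2.72 in the third group against mdx, adjusted p = 2.7e-05). Cdkn1a, the gene of the cell cycle inhibitor p21, read 952 and 531, 206 and 178, and 449 and 413 in the same order (-1.89 in mdx, adjusted p = 0.00042). Its rise of 1.16 against mdx (adjusted p = 0.021) was lost when any of the 4 libraries was left out (1.06 to 1.27) and with libraries scaled to the same total (0.54, adjusted p = 0.20). Myog, the gene of the differentiation factor myogenin and a known HuR target, read 124 and 281, 945 and 920, and 432 and 1232. It was higher than control by 2.31 in mdx (adjusted p = 0.0017, but 0.066 with a robust prior, 0.070 without a minimum mean and 0.098 with a single prior variance, and with 1.73 and 2.90 on leaving out control replicate 1 or 2) and by 1.96 in the third group (adjusted p = 0.0097, lost without control replicate 1 at 1.37 and without Sirt6mKO/mdx replicate 2 at 1.21, and at 2.55 without control replicate 2 and 2.72 without Sirt6mKO/mdx replicate 1). Myod1, singled out after its values were seen because ZFP36 and STAU1 are known to act on it, read 400 and 310, 349 and 339, and 251 and 495, with log2 differences of -0.03 in mdx and 0.04 in the third group against mdx.

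Markers of MuSCs and of other cells of muscle were summed in each library. The depletion of Sca1, CD45 and CD31 positive cells before the sort is meant to remove fibro-adipogenic, blood and endothelial cells. Summed values of 10 MuSC markers were 22929 and 23977 in control, 18968 to 22717 in mdx and 17807 to 20222 in the third group. The sum joins genes that went both ways, and 2 of the 10 were called lower and 0 higher in mdx, beside 7.34% and 6.89% of all tested genes. Chosen after their values were seen, Sdc4 read 7692 and 6224 in control against 1100 and 1049 in mdx, and Chrdl2 684 and 728 against 136 and 137, whereas Vcam1 read 3730 and 3697 against 7031 and 5753. The sums of 10 fibro-adipogenic markers were 20893 to 27601 in control, 31994 to 39077 in mdx and 21394 to 28848 in the third group, higher in mdx without overlap. Col3a1, which read 30817 and 26928 in mdx against 16458 and 22798 in control, made up most of this sum, while Pdgfra, Dcn, Lum, Dpt and Mfap5 overlapped between these groups. Of the 9 tested genes of the list, 2 were called higher in mdx, beside 6.89% of all tested genes. Those of 8 endothelial markers were 836 to 948, 436 to 451 and 646 to 650, lower in mdx than in control without overlap, as were the sums of the MuSC, myofibre, Schwann, smooth muscle and pericyte, and erythroid markers. Against the third group, the mdx sums of the MuSC and myofibre markers overlapped. Those of the Schwann and of the smooth muscle and pericyte markers were higher in mdx than in the third group. The 9 macrophage and leukocyte markers in the table summed to 127 to 188, 111 to 128 and 226 to 258. Summed myofibre markers were 8082 to 8903, 2099 to 6362 and 5570 to 12234, and smooth muscle and pericyte markers 9119 to 9626, 7812 to 9100 and 4786 to 5101. Schwann cell markers summed to 1962 to 2947, 1283 to 1398 and 712 to 870, and the 6 erythroid markers, of which 1 was at 0 throughout, to at most 91. The part of these cells in the differences of the members was not tested.

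The genes most like Zfp36 and Btg2 over the 6 libraries were searched among 9665 genes with a mean of at least 50, by the Euclidean distance of log2 values centred per gene. For Zfp36 these were Maff (distance 0.506), Nr4a3 (0.647), Trib1 (0.662), Lag3 (0.692) and Nfil3 (0.699). For Btg2 they were Cebpb (0.615), Fosb (0.627), Cxcl1 (0.628), Sbno2 (0.761) and Dedd2 (0.773). Zfp36 and Btg2 were 1.15 apart. These distances describe 6 libraries of 3 groups and carry no test.

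**Figure D5:**
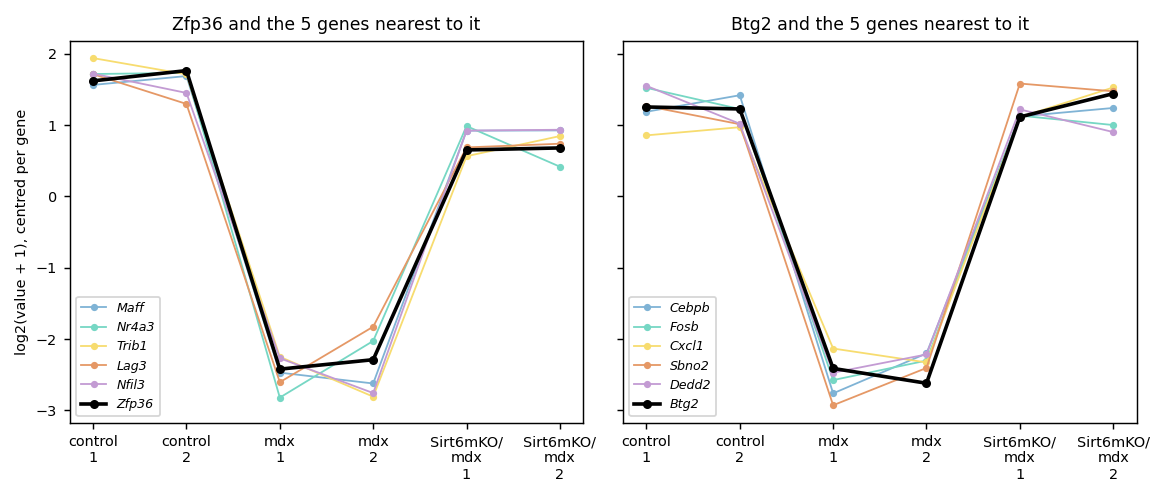
Log2 values of Zfp36 (left) and Btg2 (right), each with the 5 nearest genes, centred per gene, in the 6 libraries (horizontal axis). Both panels drop in the mdx libraries, and the Sirt6mKO/mdx-labelled libraries lie below control for Zfp36 and near it for Btg2.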

How the data were processed

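Total RNA of sorted MuSCs was depleted of ribosomal RNA and sequenced by the authors in 6 libraries, 2 in each of 3 groups. According to the methods and the submitters' processing notes, reads were checked with FastQC (0.10.1), trimmed with Reaper, aligned to GRCm38 (mm10) with STAR (2.4.2a in the notes) and counted per gene with featureCounts (1.4.5-p1). Only reads touching exons of a single gene at a single place were admitted, and counts were normalised by the authors with DESeq2 (1.6.0 in the notes). The values deposited by the authors are such normalised counts rounded to whole numbers, treated here as a score on a linear scale and not as raw counts.

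Values were analysed as log2(value + 1) for the 15915 genes with a mean of at least 5 over the libraries. All 6 libraries entered one limma fit (limma 3.58.1, R 4.3.3, empirical Bayes with a mean-variance trend, no replicate block) with two-sided tests and Benjamini-Hochberg adjustment, and the script was checked on simulated data. Genes were called at an adjusted p of at most 0.05 and a log2 fold change of at least 1 in size, the thresholds of the study. Intervals are 95% intervals of the fit. Library depth was estimated from the spacing of the rounded values. The labels do not say that libraries come from separate animals, while the methods speak of 2 biological replicates, so p-values measure the spread between these libraries. They give no sequencing batch or date.

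The members and gene lists were chosen with earlier results of these data known. All 10 members are named, and from each list up to 3 called genes per direction and comparison whose libraries did not overlap and whose mean was 50 or more, those with the largest change. Alternatives covered pseudocounts, filters, scaling, the variance prior, the libraries in the fit, a replicate block and the removal of each library. Of the gene identifiers, 98.5% were in GENCODE M21.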

Additional observations from a re-analysis of the deposited data

How the results depend on the processing

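Pseudocounts of 0.1 and 5, a minimum mean of 50, a robust prior and fits of the 2 groups compared changed no call or direction of the 10 members. Scaling libraries to the same total set the median of all genes to -0.58 in both comparisons with Sirt6mKO/mdx. It turned Zfp36l1 to -0.24 and Stau1 to -0.49 against mdx, and Btg2 to -0.57 against control. Calls against mdx then numbered 479 higher and 2932 lower, 14.0% of them higher in place of 68.8%, with 3 members lower. Against control they numbered 455 and 2693, 14.5% higher in place of 65.9%, with 6 members lower. Scaling to the upper quartile left 1 member lower than control, because Zfp36 then just missed the minimum fold. Without a minimum mean, 417 genes were called higher and 572 lower in mdx against control, 154 and 14 in Sirt6mKO/mdx against mdx, with 2 members higher, and 169 and 52 against control, with 0 members (5 at an unadjusted p under 0.05). A single prior variance gave 181 and 360 calls with 2 members lower, 0 and 0 with 0 members, and 65 and 22 with 0 members, although 4 members had an unadjusted p under 0.05 in each of the last 2 comparisons. A fit of the 2 groups alone gave 541 genes higher in Sirt6mKO/mdx than in control.

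Leaving out 1 library at a time gave 282 to 1221 higher and 657 to 1186 lower calls in mdx against control, both lowest without mdx replicate 1, with 5 members lower throughout. Sirt6mKO/mdx against mdx gave 182 to 1019 and 21 to 481, lowest without Sirt6mKO/mdx replicate 1, with 2 or 3 members higher. Against control the ranges were 167 to 853 and 46 to 461, lowest without Sirt6mKO/mdx replicate 2, with 0 to 3 members lower. Signs near 0 turned without Sirt6mKO/mdx replicate 1 for Cnot7 against mdx (-0.36 to 0.085) and Hnrnpd against control (-0.27 to 0.0096), and without replicate 2 for Btg2 against control (-0.13 to 0.20). The lone library of a group is then assumed to vary like the others. The ZFP36 target mRNAs had 12 to 15 lower calls in mdx and 10 to 14 higher calls in Sirt6mKO/mdx against mdx. The causes of these changes were not tested.

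Among the named genes of the lists, calls in mdx against control were lost by Exosc9, Igf2bp2, Ywhae and Myog without a minimum mean, by these and Cnot6l, Zc3h12a, Ptbp1 and Cdkn1a with a single prior variance, by Exosc9 with a pseudocount of 5 (0.99) or upper quartile scaling (0.99), by Myog with a robust prior and by Ywhae when the 2 groups were fitted alone. Calls in Sirt6mKO/mdx against mdx were lost without a minimum mean by Ddx6, Igf2bp2, Zc3h12a, Tia1, Ywhab, Ywhae, Ccnd1, Cdkn1a and Nr4a2, with upper quartile scaling by Ddx6 and Ywhae, with a pseudocount of 0.1 by Ywhae and with a robust prior by Nr4a2. Against control, every named list gene except Lif lost its call without a minimum mean and with a single prior variance. There, Ier5 also lost it with a pseudocount of 0.1, a robust prior or the 2 groups alone, Ccnd1 with a pseudocount of 0.1 or the 2 groups alone, Lsm3 with the 2 groups alone and Myog with a robust prior.

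Replicate numbers did not pair the libraries, since deviations of libraries with the same number correlated by -0.13, 0.12 and 0.01 across genes. With the number as a replicate block, 5 members were lower in mdx, 3 higher in Sirt6mKO/mdx against mdx and 2 lower against control, and Zfp36 kept -4.05, so the block changed no call of a member. With 2 libraries a group, standard errors of the members were between 0.235 and 0.299 on the log2 scale, and differences under 1 were not called by construction. Cnot7, the member with the lowest mean value per gene, rested on approximately 134 reads in Sirt6mKO/mdx replicate 1, the fewest of its libraries.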
